A study of Mus musculus with 40 samples.

Results

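The genes described here encode the known protein components of Mallory-Denk bodies, and were chosen by symbol: Krt8, Krt18, Sqstm1, Nbr1, Ubb, Hspb1, Cryab and Tgm2. All 8 were found among the 24499 gene symbols of the deposited counts, and all 8 passed the filter on low counts. Their messenger RNA was followed in 40 mouse liver libraries from 8 groups. The libraries were read as 1 per animal because each title carries its own number.

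Mallory-Denk bodies are inclusions in hepatocytes that hold misfolded, cross-linked keratin 8 and keratin 18 together with ubiquitin, the autophagy receptor p62 and small heat shock proteins. They are known from alcoholic steatohepatitis in people, and feeding mice with 3,5-diethoxycarbonyl-1,4-dihydrocollidine (DDC), which disturbs heme synthesis, is a standard way to produce them. In mice, an excess of keratin 8 over keratin 18 is known to favour their formation. RNA counts say nothing of whether inclusions were present in these livers.

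All animals were adult male C57BL/6 mice, and RNA came from whole liver. DDC 0D mice (n = 4) had received DDC in the diet at 0.05% by weight with no second treatment, and Control 0D mice (n = 4) had received the diet marked BD. DDC+EtOH (n = 6), DDC+HFD (n = 6) and DDC+Cont (n = 5) mice had first been fed DDC. EtOH (n = 4), HFD (n = 6) and Control 28D (n = 5) mice had first been fed BD. The second treatment was HFD with ethanol in both ethanol groups, HFD alone in both HFD groups, and BD in DDC+Cont and Control 28D. Ethanol ran continuously through a gastric tube, at no more than 27 g/kg/day and for no longer than 28 days. The labels spell out neither BD nor HFD. Reads counted on genes numbered 7197939 to 26398061 per library (median 13653548). The hepatocyte markers Alb, Ttr and 8 others summed to 69060 to 133600 CPM in every library (CPM, the usual depth-scaled read count, computed here with the TMM factor of each library). In 7 libraries, 10 transcripts of pancreatic acinar cells summed to over 1000 CPM: HFD replicate 14, DDC+Cont replicate 24, DDC+HFD replicates 30, 33 and 36, and DDC+EtOH replicates 38 and 41.

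Krt8 and Krt18 both lie on mouse chromosome 15 (GRCm38, GENCODE vM21), Krt8 at chr15:101996698-102004482 on the minus strand and Krt18 at chr15:102028180-102032027 on the plus strand. Sqstm1 (chr11:50199366-50210827, minus strand), Nbr1 (chr11:101552149-101581951, plus strand) and Ubb (chr11:62551171-62553213, plus strand) lie on chromosome 11. Hspb1 lies at chr5:135887919-135889563 and Cryab at chr9:50751325-50756636, both on the plus strand, and Tgm2 at chr2:158116402-158146436 on the minus strand. All 8 are protein-coding. The start regions of both keratin genes are shown because the 2 genes moved together, that of Hspb1 because it moved with ethanol while both keratins moved most with DDC, and that of Sqstm1 because it moved with both. The RefSeq promoter table held 6 of the 8 genes, and 4 are shown. Each sequence runs 5′ to 3′ on the strand of its gene, from 250 bases before the annotated start to 50 bases after it, as given by RefSeq for GRCm38.p6. Capitals mark matches on either strand to 5 motifs. These were a heat shock element pair (GAANNTTC or TTCNNGAA), an antioxidant response element core (TGACNNNGC) and an AP-1 site (TGA, any base, then TCA). The others were a TATA box (TATAAA) and a GC box (GGGCGG).
Krt8: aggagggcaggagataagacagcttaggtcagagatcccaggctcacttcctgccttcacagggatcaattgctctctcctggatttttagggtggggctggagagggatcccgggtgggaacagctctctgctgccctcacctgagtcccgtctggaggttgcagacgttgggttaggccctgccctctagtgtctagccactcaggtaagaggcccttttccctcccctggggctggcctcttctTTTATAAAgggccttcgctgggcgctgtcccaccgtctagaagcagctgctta
Krt18: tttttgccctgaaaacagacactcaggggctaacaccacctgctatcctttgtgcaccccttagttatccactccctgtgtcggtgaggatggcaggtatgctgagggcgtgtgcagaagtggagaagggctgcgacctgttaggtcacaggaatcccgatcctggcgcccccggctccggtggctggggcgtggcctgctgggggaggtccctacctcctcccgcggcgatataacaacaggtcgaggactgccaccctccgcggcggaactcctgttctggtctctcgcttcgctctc
Hspb1: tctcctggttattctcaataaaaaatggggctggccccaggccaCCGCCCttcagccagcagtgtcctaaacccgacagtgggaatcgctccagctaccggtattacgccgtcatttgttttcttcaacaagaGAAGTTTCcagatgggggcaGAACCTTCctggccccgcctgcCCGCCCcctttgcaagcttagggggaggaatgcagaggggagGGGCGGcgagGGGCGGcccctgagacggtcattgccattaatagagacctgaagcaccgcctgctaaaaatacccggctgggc
Sqstm1: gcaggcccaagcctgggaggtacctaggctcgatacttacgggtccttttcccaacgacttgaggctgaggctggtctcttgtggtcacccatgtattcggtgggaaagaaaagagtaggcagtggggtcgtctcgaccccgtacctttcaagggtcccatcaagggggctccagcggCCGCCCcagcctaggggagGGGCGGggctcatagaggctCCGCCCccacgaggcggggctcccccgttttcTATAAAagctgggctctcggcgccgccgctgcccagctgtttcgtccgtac
The windows are chr15:102004293-102004592 (minus strand) for Krt8, chr15:102027966-102028265 (plus strand) for Krt18, chr5:135887669-135887968 (plus strand) for Hspb1 and chr11:50210771-50211070 (minus strand) for Sqstm1. Hspb1 held matches to the heat shock element pair at -117 to -110 and at -97 to -90 from the start, and 4 GC boxes. Any match to that element pair, single or repeated, occurred in 15.1% of the 32851 promoter windows of that length in the RefSeq table. Any GC box, single or repeated, occurred in 35.7%. The shares of windows with repeated matches are not given. Sqstm1 held 3 GC boxes and a TATA box match at its annotated start. Krt8 held only a TATA box match, read on both strands in overlapping letters at its annotated start, and a TATA box occurred in 13.6% of windows. The Krt18 window held none of the 5 motifs. The antioxidant response element core (12.4% of windows) and the AP-1 site (7.81%) were in none of these 4 windows. A match describes letters only, and no match says only that these letters are not in that window.

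In DDC 0D livers, 5 of the 8 genes rose and 1 fell relative to Control 0D livers, and for these 6 genes the libraries of the 2 groups did not overlap. Of all 14355 genes tested in this comparison 52.0% were called (3954 higher, 3515 lower), so that a call alone is common here. The share of all genes whose libraries did not overlap is not given, here or in the comparisons below. A lack of overlap therefore describes each gene alone and does not set the 8 genes apart. A gene was called at an adjusted p under 0.05 in edgeR's quasi-likelihood test with Benjamini-Hochberg adjustment over all genes tested, and every adjusted p below is from that test unless said otherwise. The median log2 fold change of the 8 genes was 0.65, beside 0.0062 over all genes. DDC 0D and Control 0D shared lanes 3 and 4 only, and with sequencing lane as a term 6 genes were still called.

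**Figure D1:**
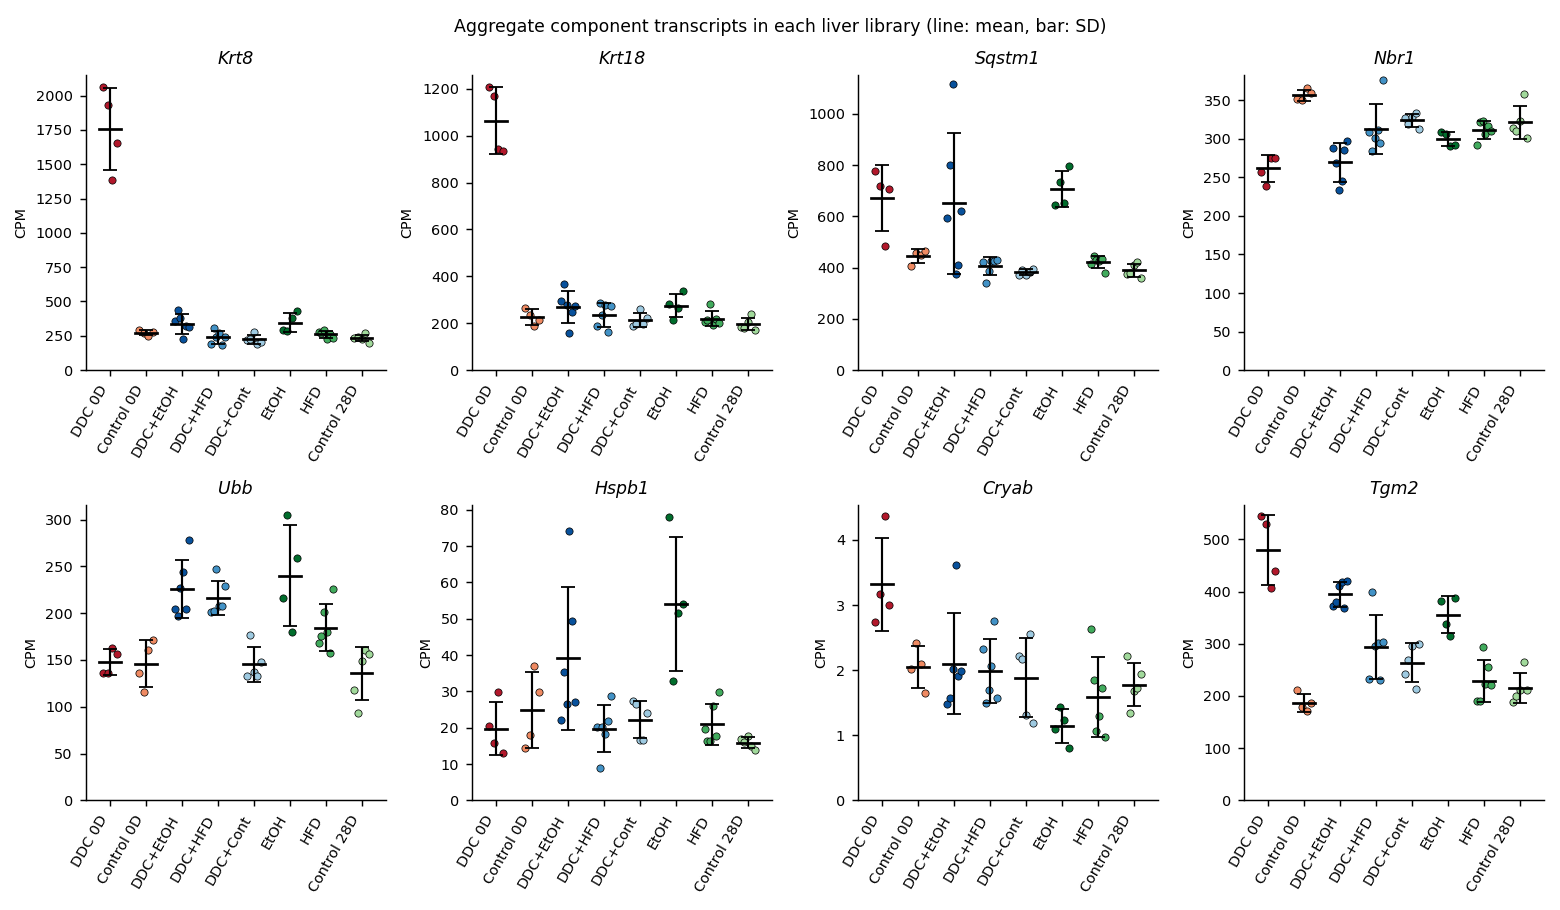
CPM of each gene (vertical axis, from 0) in each library (points), with the mean (line) and SD (bar) of the 8 groups. Krt8 and Krt18 stand far apart in DDC 0D, while Hspb1 and Ubb are highest on average in EtOH.

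Krt8 encodes the type II keratin of hepatocytes, which pairs with the type I keratin encoded by Krt18. Krt8 stood at 2060, 1931, 1388 and 1658 CPM in DDC 0D livers, against 289.0, 273.6, 250.5 and 278.8 CPM in Control 0D livers. Each of the 4 DDC livers was several times above every control. The difference was 6.45-fold (log2 fold change 2.69 ± 0.17 SE, adjusted p = 3.71e-15).

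Krt18 stood at 1206, 1170, 944.5 and 936.4 CPM in DDC 0D livers, against 265.0, 236.5, 186.7 and 212.3 CPM in Control 0D livers. Again all 4 DDC livers were far above all controls. The difference was 4.73-fold (2.24 ± 0.19 SE on the log2 scale, adjusted p = 2.71e-12). Krt18 shares few of its 50-base words with other annotated transcripts (0.72%), whereas 29.7% of those of Krt8 also occur in Krt8-ps or Gm36026, and reads aligned to more than 1 place were not counted.

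Bile duct cells express both keratins as well, so their markers stand beside these values. In DDC 0D livers 12 of 13 bile duct epithelium markers rose and none fell. Their summed level was 243.6 to 322.6 CPM in DDC 0D livers, against 52.08 to 75.68 CPM in Control 0D livers, and none of the 13 was at 0 in either group. Among the DDC 0D livers the 2 with the lower bile duct sums had the higher Krt8 levels, and the part of bile duct cells in the keratin rise was not tested. In these bulk samples, fewer cells of a type and less RNA per cell cannot be told apart. Of 10 hepatocyte markers 9 fell and 1 rose, with a summed level of 69060 to 82390 CPM in DDC 0D livers, against 101400 to 109300 CPM in Control 0D livers. Of 8 stellate cell markers 7 rose, with a summed level of 980.9 to 1131 CPM in DDC 0D livers, against 314.7 to 349.9 CPM in Control 0D livers. Of 6 macrophage markers 5 rose, with a summed level of 1034 to 1399 CPM in DDC 0D livers, against 302.5 to 477.4 CPM in Control 0D livers.

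**Figure D2:**
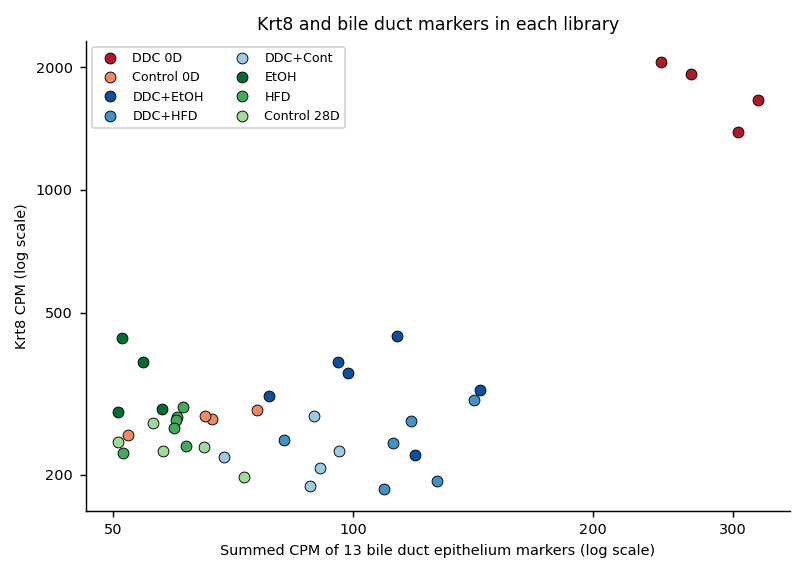
Krt8 CPM (vertical, log scale) against the summed CPM of 13 bile duct epithelium markers (horizontal, log scale), 1 point per library, coloured by group. The 4 DDC 0D libraries stand apart on both axes, and all 4 EtOH libraries lie above every Control 28D library in Krt8, while their bile duct sums overlap.

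Other simple keratins, among them Krt7 and Krt19 of bile duct cells, rose as well. All 4 tested genes of the list of other simple keratins were higher in DDC 0D livers (Krt7, Krt19, Krt23 and Krt80; median log2 fold change 2.61), and 2 of the 6 listed genes did not pass the filter. Krt7 averaged 10.2 ± 2.8 CPM in DDC 0D livers and 0.70 ± 0.16 CPM in Control 0D livers (SD, n = 4 each). Krt19 averaged 14.9 ± 4.1 CPM in DDC 0D livers and 1.64 ± 1.23 CPM in Control 0D livers (SD, n = 4 each). Per kilobase of exon, Krt8 averaged 898.6 CPM and Krt18 740.6 CPM in DDC 0D livers, and 139.4 and 156.7 CPM in Control 0D livers. Full exon length was used although part of Krt8 is shared with other genes, so these levels do not show which keratin was in excess.

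Of 8 genes listed as filament linkers, 7 rose in DDC 0D livers and none fell (median log2 fold change 1.16). The list holds genes whose proteins link keratin filaments to junctions or to each other, and also Vim, which encodes a filament protein itself. Ppl, encoding the cornified-envelope linker periplakin, rose most (3.09 ± 0.27 SE, adjusted p = 1.15e-11), with 135 ± 47 CPM in DDC 0D livers and 15.8 ± 3.3 CPM in Control 0D livers (SD, n = 4 each). Eppk1, encoding the keratin-binding epiplakin, rose by 1.59 ± 0.22 SE on the log2 scale (adjusted p = 1.38e-07). Dsp, encoding desmoplakin of desmosomes, rose by 0.73 ± 0.11 SE (adjusted p = 9.35e-07). Vim, the intermediate filament of mesenchymal cells, also rose (2.00 ± 0.23 SE, adjusted p = 4.86e-09), in the libraries in which stellate cell and macrophage markers rose.

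The balance of the 2 keratins was followed as a ratio of reads within each library. There were 1.71, 1.65, 1.47 and 1.77 Krt8 reads per Krt18 read in DDC 0D livers, against 1.09, 1.16, 1.34 and 1.31 in Control 0D livers. The groups did not overlap, with means of 1.65 ± 0.13 in DDC 0D livers and 1.23 ± 0.12 in Control 0D livers (SD, n = 4 each). The two-sided exact permutation p was 0.0286, the smallest that 4 against 4 libraries can give, and it was 0.0619 after Benjamini-Hochberg adjustment over the 13 pairs of groups compared, so the difference missed the threshold after adjustment. Divided by full exon length, the ratio was 1.21 in DDC 0D livers and 0.90 in Control 0D livers. Other annotated transcripts share 29.7% of the Krt8 words but only 0.72% of the Krt18 words, and reads with several alignments were not counted. Full exon length can therefore understate Krt8, and which keratin was in excess cannot be read from these values.

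**Figure D3:**
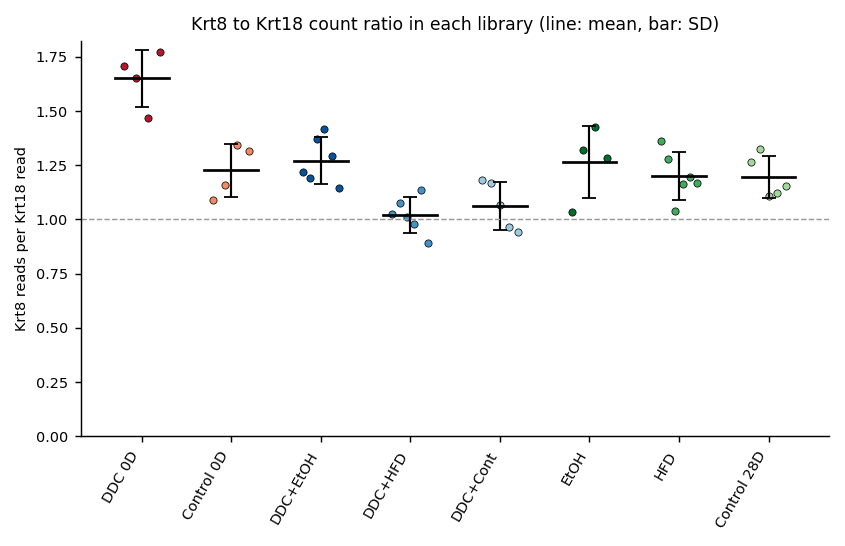
Krt8 reads per Krt18 read (vertical axis, from 0) in each library (points), with the mean (line) and SD (bar) of each group; the dashed line marks equal reads. DDC 0D libraries lie between 1.47 and 1.77, and DDC+HFD libraries lie between 0.89 and 1.14, below every DDC+EtOH library.

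The autophagy receptors moved in opposite directions. Sqstm1 encodes p62, which binds ubiquitinated proteins, brings them to autophagosomes and is itself induced by the oxidative stress regulator NRF2. It stood at 778.2, 716.8, 484.4 and 707.1 CPM in DDC 0D livers, against 407.4, 458.7, 449.6 and 466.6 CPM in Control 0D livers. DDC 0D replicate 7 lay just above the highest control and the other 3 well above it. Sqstm1 rose 1.51-fold (0.59 ± 0.18 SE on the log2 scale, adjusted p = 0.00618).

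Nbr1 encodes another receptor of related domain layout that works with p62 and is also found in these inclusions. It stood at 256.4, 239.3, 275.4 and 275.4 CPM in DDC 0D livers, against 352.1, 349.8, 365.5 and 359.2 CPM in Control 0D livers. All 4 DDC livers were below all controls, and Nbr1 fell by 0.45 ± 0.078 SE on the log2 scale (adjusted p = 8.72e-06). No 50-base word of Nbr1 is shared with another gene. Sqstm1 overlaps exon bases of Mrnip on the other strand, and without a stated strand setting reads there cannot be told apart.

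Of 11 tested autophagy receptors other than p62 and Nbr1, 3 fell and none rose in DDC 0D livers, with a median log2 fold change of -0.06. Those that fell were Optn, Bnip3l and Tex264, and the largest of these was Optn (-0.40 ± 0.10 SE, adjusted p = 0.00125), encoding the ubiquitin-binding receptor optineurin. Of 26 genes of the autophagosome machinery 15 fell and none rose, with a median of -0.38, beside 3515 of 14355 genes lower in the whole comparison. Ulk2, a kinase that starts autophagosome formation, averaged 70.9 ± 2.0 CPM in DDC 0D livers and 141 ± 9.6 CPM in Control 0D livers (SD, n = 4 each; -0.99 ± 0.097 SE on the log2 scale, adjusted p = 1.07e-10). Atg101, a subunit of the same kinase complex, averaged 16.8 ± 2.3 CPM in DDC 0D livers and 35.2 ± 2.9 CPM in Control 0D livers (-1.06 ± 0.14 SE, adjusted p = 4.86e-08). Sqstm1 was higher in the same livers, in which hepatocyte markers were lower as well.

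NRF2 target genes were taken beside Sqstm1. Of 10 listed genes (NRF2 itself, its inhibitor Keap1 and 8 targets) 7 rose and 1, Keap1, fell in DDC 0D livers (median log2 fold change 1.60). Srxn1, encoding the peroxiredoxin repair enzyme sulfiredoxin, averaged 280 ± 67 CPM in DDC 0D livers and 47.0 ± 4.7 CPM in Control 0D livers (SD, n = 4 each; 2.58 ± 0.32 SE on the log2 scale, adjusted p = 3.73e-08). Nqo1, encoding a quinone reductase, rose by 2.40 ± 0.28 SE (adjusted p = 7.79e-09).

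Ubb, which encodes polyubiquitin, was not called. It stood at 135.6, 136.4, 162.7 and 155.9 CPM in DDC 0D livers, against 135.8, 115.6, 160.6 and 171.6 CPM in Control 0D livers, and the groups overlapped throughout (0.018 ± 0.15 SE on the log2 scale, adjusted p = 0.933). For Ubb 48.1% of 50-base words also occur in other annotated genes, so its counts come from part of the transcript.

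The small heat shock proteins Hspb1 and Cryab bind misfolded proteins and keep them from clumping. Hspb1 was not called: it stood at 20.5, 15.8, 29.7 and 12.9 CPM in DDC 0D livers, against 14.4, 18.1, 37.1 and 29.9 CPM in Control 0D livers (-0.34 ± 0.34 SE, adjusted p = 0.422). The spread within each group was wide and the groups overlapped. Cryab, encoding alpha-B crystallin, was the rarest of the 8 genes, with 11 to 67 reads per library. It stood at 2.74, 3.17, 4.36 and 3.00 CPM in DDC 0D livers, against 2.02, 2.42, 2.10 and 1.65 CPM in Control 0D livers, without overlap. It was called higher (0.70 ± 0.26 SE, adjusted p = 0.0249), but not without DDC 0D replicate 7 (adjusted p = 0.112) or without Control 0D replicate 4 (adjusted p = 0.0769). Skeletal muscle markers summed to 31.58 CPM in DDC 0D replicate 7, against 0.2285 to 0.6031 CPM in the other DDC 0D livers. In Control 0D replicate 2 they summed to 153.9 CPM, against 0.4047 to 1.136 CPM in the other Control 0D livers. The part of muscle transcripts in the Cryab values was not tested, here or in the comparisons below. Cryab overlaps exon bases of Hspb2 on the other strand.

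None of the 3 tested genes among 8 other small heat shock proteins was called in edgeR's test (Hspb6, Hspb8 and Hspb11, with log2 fold changes of -0.26, -0.17 and 0.014). Of 23 large heat shock proteins and cochaperones 10 fell and 1 rose, with a median log2 fold change of -0.38. The gene that rose was Hspa2, a member of the HSP70 family (1.48 ± 0.26 SE, adjusted p = 1.26e-05). Among those that fell were Dnajb2, an HSP40 cochaperone that binds ubiquitinated clients (-0.61 ± 0.12 SE, adjusted p = 3.16e-05), and the mitochondrial chaperonin Hspd1 (-0.45 ± 0.11 SE, adjusted p = 0.000832).

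Tgm2 encodes tissue transglutaminase, the enzyme that cross-links keratin 8 in the inclusions. It stood at 544.2, 529.7, 406.9 and 438.7 CPM in DDC 0D livers, against 211.2, 178.8, 171.6 and 187.3 CPM in Control 0D livers. The groups did not overlap, and Tgm2 rose 2.56-fold (1.36 ± 0.14 SE on the log2 scale, adjusted p = 4.79e-10). Of 4 other tested transglutaminases 2 rose and 1 fell. Those that rose were F13a1, the clotting factor subunit of macrophages (3.55 ± 0.65 SE, adjusted p = 2.06e-05), and Tgm1 (1.04 ± 0.31 SE, adjusted p = 0.00496), with macrophage markers higher in the same libraries. Tgm2 is also expressed by endothelial and other nonparenchymal cells, and their part in its rise was not tested. Of 5 sinusoidal endothelium markers 3 fell and none rose, with a summed level of 285.6 to 313.3 CPM in DDC 0D livers, against 358.1 to 393.0 CPM in Control 0D livers.

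**Figure D4:**
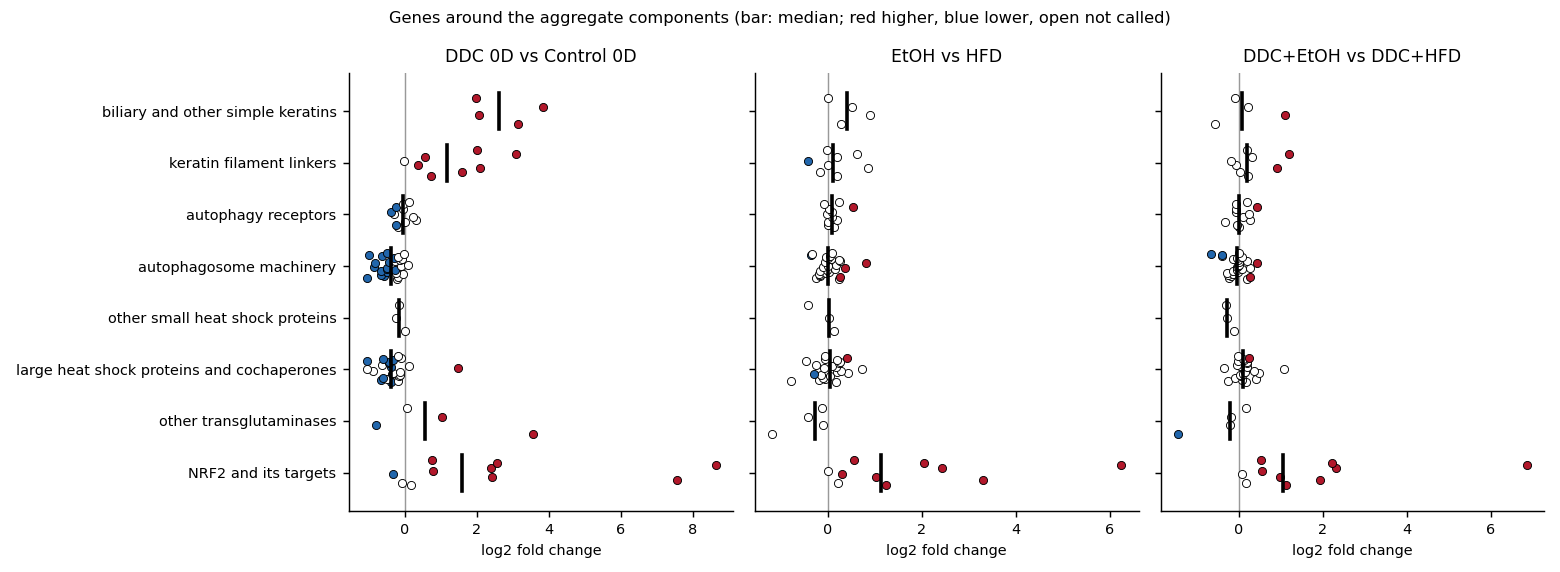
Log2 fold change (horizontal) of every tested gene in 8 lists around the aggregate components (rows) for DDC 0D against Control 0D, EtOH against HFD, and DDC+EtOH against DDC+HFD; bars are medians, red points were called higher, blue points lower and open points were not called. Other keratins and filament linkers have their highest medians for DDC 0D (2.61 and 1.16), while the medians of NRF2 genes are above 1 in all 3 panels.

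After DDC was followed by BD, edgeR's test called none of the 8 genes between DDC+Cont and Control 28D livers, where 1.52% of all genes tested were called. At an unadjusted p under 0.05 there was 1 gene, Tgm2, and DESeq2 also called none. Krt8 stood at 221.6, 229.1, 278.6, 187.6 and 208.0 CPM in DDC+Cont livers, against 234.0, 240.8, 228.3, 268.4 and 197.8 CPM in Control 28D livers (-0.056 ± 0.14 SE on the log2 scale, adjusted p = 0.941). Krt18 stood at 187.5, 196.4, 261.3, 194.8 and 220.5 CPM in DDC+Cont livers, against 185.1, 181.5, 205.8, 238.7 and 171.1 CPM in Control 28D livers (0.11 ± 0.16 SE, adjusted p = 0.879). For both keratins the libraries of the 2 groups were interleaved. Tgm2 stood at 243.0, 269.0, 296.1, 213.1 and 299.3 CPM in DDC+Cont livers, against 188.9, 200.8, 211.0, 264.5 and 211.7 CPM in Control 28D livers, a difference that missed the threshold (0.29 ± 0.13 SE, adjusted p = 0.321). Of the 13 bile duct markers 3 were called higher here, with a summed level of 68.91 to 95.85 CPM in DDC+Cont livers, against 50.59 to 73.01 CPM in Control 28D livers, and 2 of 8 stellate cell markers were higher.

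Compared directly with DDC 0D livers, DDC+Cont livers had 5 of the 8 genes lower and 1 higher, all 6 without overlap, where 43.4% of all genes were called. Krt8 was lower by 2.97 ± 0.16 SE on the log2 scale (adjusted p = 8.93e-17) and Krt18 was lower by 2.33 ± 0.17 SE (adjusted p = 4.5e-13). Sqstm1 (-0.81 ± 0.17 SE, adjusted p = 0.000192) and Tgm2 (-0.86 ± 0.13 SE, adjusted p = 1.88e-06) were lower too, and Nbr1 was higher (0.31 ± 0.074 SE, adjusted p = 0.000898). Cryab was lower (-0.81 ± 0.25 SE, adjusted p = 0.00914), but not without DDC 0D replicate 7 (adjusted p = 0.0577). The cell type markers moved too: 11 of 13 bile duct markers were lower (median log2 fold change -2.73), with a summed level of 68.91 to 95.85 CPM in DDC+Cont livers, against 243.6 to 322.6 CPM in DDC 0D livers. All 8 stellate cell markers and 3 of 6 macrophage markers were lower, while 7 of 10 hepatocyte markers and 2 of 5 sinusoidal endothelium markers were higher. The part of these cells in the 6 calls was not tested. This comparison shares its DDC 0D libraries with the first one, and the second treatment and the stage cannot be told apart in it. Among animals without DDC, edgeR's test called none of the 8 genes between Control 28D and Control 0D livers (2.46% of all genes called), DESeq2 called none, and 1 gene, Nbr1, had an unadjusted p under 0.05 (-0.15 ± 0.074 SE, adjusted p = 0.314).

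The difference of the DDC effects at the 2 stages was tested itself, as the log2 fold change of DDC+Cont against Control 28D minus that of DDC 0D against Control 0D. It was called for 5 of the 8 genes, where 32.1% of all genes were called. The DDC effect was smaller at 28D for Krt8 (-2.74 ± 0.22 SE, adjusted p = 2.08e-11), Krt18 (-2.13 ± 0.24 SE, adjusted p = 3.01e-08) and Tgm2 (-1.06 ± 0.19 SE, adjusted p = 3.92e-05). For Nbr1, which had fallen, the difference was 0.46 ± 0.10 SE (adjusted p = 0.000843). For Sqstm1 it was -0.62 ± 0.24 SE with an adjusted p of 0.0489, and this call was lost with lane as a term (adjusted p = 0.128), without a low-count filter (0.0985), with robust estimation off (0.0511) and without any single library of the 4 groups other than DDC 0D replicate 7 and Control 28D replicate 13 (adjusted p up to 0.122).

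The ratio of the keratins was lower again in DDC+Cont livers. There were 1.18, 1.17, 1.07, 0.96 and 0.94 Krt8 reads per Krt18 read in DDC+Cont livers, against 1.71, 1.65, 1.47 and 1.77 in DDC 0D livers. The log2 ratio was lower by 0.64, with no overlap (two-sided exact permutation p = 0.0159, the smallest possible here; adjusted p = 0.045). Against Control 28D livers, at 1.264, 1.327, 1.109, 1.124 and 1.156, the difference in log2 ratio was -0.17 (exact permutation p = 0.0952, adjusted p = 0.177).

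**Figure D5:**
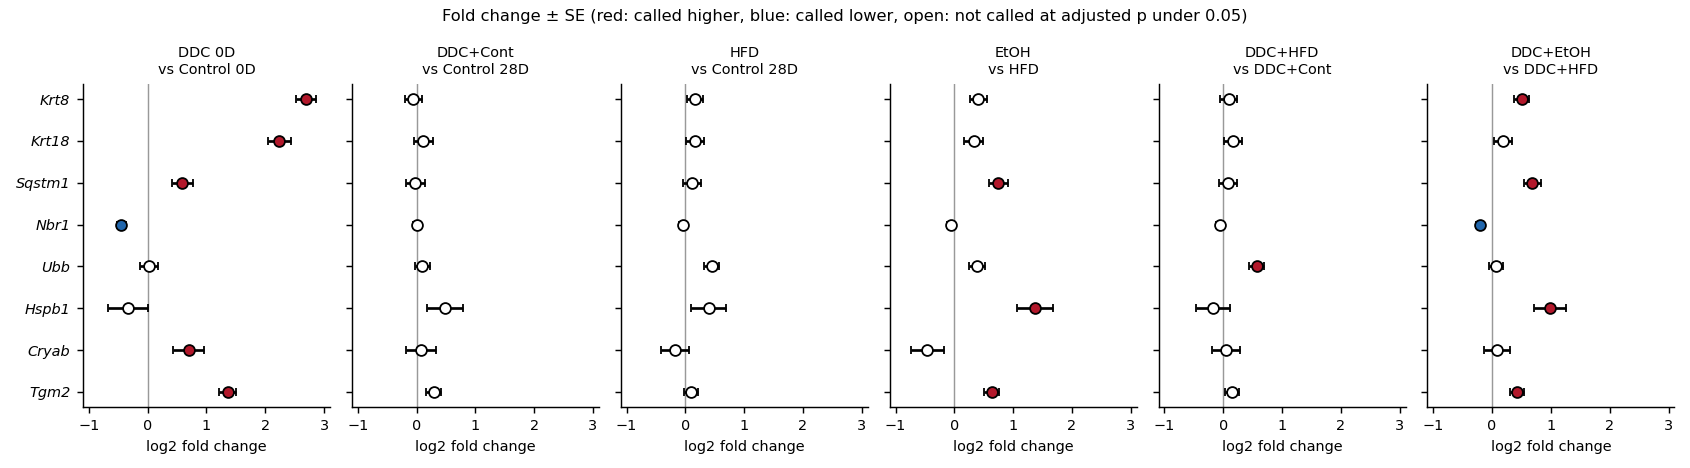
Log2 fold change (horizontal, bars ± SE) of the 8 genes (rows) in 6 comparisons, filled red or blue where called higher or lower and open where not called. DDC 0D moved 6 genes, where 52.0% of all genes were called. With ethanol on top of HFD, Sqstm1, Hspb1 and Tgm2 were called higher both without earlier DDC and after it. After DDC these calls were lost with only the compared groups in the fit.

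HFD alone was set against BD in mice without DDC. EdgeR's test called none of the 8 genes between HFD and Control 28D livers, where 0.376% of all genes were called, and DESeq2 called none. Ubb alone had an unadjusted p under 0.05 (0.44 ± 0.13 SE, adjusted p = 0.147). It stood at 157.1 to 225.9 CPM in HFD livers (median 177.8), against 118.4, 93.78, 149.3, 160.3 and 156.3 CPM in Control 28D livers. Only the lowest HFD liver lay within the control range.

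Ethanol added to HFD raised Sqstm1, Hspb1 and Tgm2, all 3 without overlap between EtOH and HFD livers, where 13.5% of all genes were called. Unlike under DDC, this was the setting with the most Hspb1: 77.9, 32.8, 51.5 and 54.1 CPM in EtOH livers, against 16.3 to 29.9 CPM in HFD livers (median 18.6). All 4 ethanol livers were above all HFD livers, and Hspb1 rose 2.58-fold (1.37 ± 0.30 SE on the log2 scale, adjusted p = 0.00182). Of its 50-base words 50.1% also occur in Hsp25-ps1 or Gm9817, and what this did to its counts was not tested.

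Sqstm1 stood at 645.0, 735.3, 651.7 and 795.5 CPM in EtOH livers, against 379.5 to 445.7 CPM in HFD livers (median 428.6). The ethanol livers were all far above the HFD livers, and Sqstm1 rose 1.68-fold (0.75 ± 0.16 SE, adjusted p = 0.00145). Tgm2 stood at 382.7, 338.3, 314.3 and 388.2 CPM in EtOH livers, against 190.0 to 293.1 CPM in HFD livers (median 221.8). It rose 1.56-fold (0.64 ± 0.13 SE, adjusted p = 0.000485), again without overlap.

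Krt8 stood at 289.2, 285.0, 378.1 and 433.8 CPM in EtOH livers, against 225.7 to 293.5 CPM in HFD livers (median 266.6). EtOH replicates 22 and 23 were above all HFD livers and the other 2 were not. The difference missed the threshold (0.41 ± 0.15 SE, adjusted p = 0.0554), but passed it in DESeq2 (0.0428), with only the 2 groups in the fit (0.0352) and without HFD replicate 14 and the other libraries rich in pancreas transcripts (0.0281). Ubb also missed it (0.38 ± 0.14 SE, adjusted p = 0.0572) and passed it in DESeq2 (0.0497). Krt18 was not called (0.33 ± 0.16 SE, adjusted p = 0.192), nor were Nbr1 (-0.059 ± 0.071 SE, adjusted p = 0.65) and Cryab (-0.46 ± 0.27 SE, adjusted p = 0.292).

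Of the 10 NRF2 genes 8 rose and none fell between EtOH and HFD livers (median log2 fold change 1.14, beside -0.0049 over all genes). Srxn1 averaged 219 ± 71 CPM in EtOH livers (n = 4) and 53.0 ± 5.7 CPM in HFD livers (n = 6, SD). None of the 4 tested other keratins was called, Krt23 having the largest difference (0.89 ± 0.54 SE, adjusted p = 0.296), and among the filament linkers only Pkp2, encoding a desmosomal plaque protein, was called, as lower (-0.42 ± 0.094 SE, adjusted p = 0.00181). Of 26 autophagosome genes 3 rose and 1, Ulk2, fell. The largest increase was that of Gabarapl1, encoding an ATG8 family protein of the autophagosome membrane, with 421 ± 69 CPM in EtOH livers (n = 4) and 239 ± 32 CPM in HFD livers (n = 6; 0.82 ± 0.15 SE, adjusted p = 0.000166). Of the receptors only Tex264, a receptor for endoplasmic reticulum turnover, rose (0.54 ± 0.089 SE, adjusted p = 3.42e-05).

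Among 23 large heat shock proteins and cochaperones only 1 rose and 1 fell with ethanol: Stub1, encoding the ubiquitin ligase CHIP (0.40 ± 0.097 SE, adjusted p = 0.00376), and Hsf2 (-0.30 ± 0.088 SE, adjusted p = 0.0176). The bile duct markers summed to 50.70 to 57.55 CPM in EtOH livers, against 51.32 to 61.66 CPM in HFD livers. Of the 13, Prom1 was called higher and Sox9 lower. The 6 macrophage markers summed to 709.3 to 805.5 CPM in EtOH livers, against 550.0 to 847.9 CPM in HFD livers. Of 8 stellate cell markers 2 were called higher, with a summed level of 329.4 to 412.6 CPM in EtOH livers, against 284.3 to 345.6 CPM in HFD livers. Of 5 sinusoidal endothelium markers 2 were called higher, with a summed level of 402.4 to 432.1 CPM in EtOH livers, against 375.4 to 419.5 CPM in HFD livers. Of 10 hepatocyte markers 2 were called lower, with a summed level of 87300 to 92290 CPM in EtOH livers, against 84260 to 123900 CPM in HFD livers. The part of these cells in the called genes was not tested.

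Against BD-fed Control 28D livers, which differ from EtOH livers in both HFD and ethanol, 6 of the 8 genes were higher in EtOH livers and 5 of them without overlap, where 18.2% of all genes were called. These comparisons share the EtOH libraries. The increases were 3.40-fold for Hspb1 (1.76 ± 0.32 SE, adjusted p = 0.000149), 1.82-fold for Sqstm1 (0.86 ± 0.17 SE, adjusted p = 0.000332), 1.77-fold for Ubb (0.82 ± 0.14 SE, adjusted p = 5.05e-05) and 1.65-fold for Tgm2 (0.72 ± 0.13 SE, adjusted p = 0.000117). Krt8 was higher (0.57 ± 0.15 SE, adjusted p = 0.00696), but not without EtOH replicate 23 (0.43 on the log2 scale, adjusted p = 0.071). Krt18 was higher by 0.48 ± 0.17 SE at an adjusted p of 0.0424, a call that was lost with lane as a term (0.164), without a low-count filter (0.0569) and without any of EtOH replicates 20, 22 and 23 or Control 28D replicates 9, 10, 11 and 13 (adjusted p up to 0.211). In this comparison 2 of 8 stellate cell markers were called higher, with a summed level of 329.4 to 412.6 CPM in EtOH livers, against 282.9 to 297.3 CPM in Control 28D livers. Of 10 hepatocyte markers 3 were called lower, with a summed level of 87300 to 92290 CPM in EtOH livers, against 100600 to 133600 CPM in Control 28D livers. Neither sum overlapped between the groups, and 1 of 5 sinusoidal endothelium markers was called higher and 1 of 13 bile duct markers lower. Their part in the 6 calls was not tested.

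After DDC, HFD was set against BD. Between DDC+HFD and DDC+Cont livers only Ubb was called among the 8 genes, where 3.40% of all genes were called. It stood at 201.1 to 247.4 CPM in DDC+HFD livers (median 208.0), against 132.4, 177.0, 136.9, 132.7 and 147.9 CPM in DDC+Cont livers. The groups did not overlap, and Ubb rose 1.49-fold (0.57 ± 0.13 SE, adjusted p = 0.0104). Without the libraries rich in pancreas transcripts the increase was 0.52 on the log2 scale with an adjusted p of 0.0813. Of the markers, 2 of 13 bile duct genes were higher and 2 of 10 hepatocyte genes lower.

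Ethanol added to HFD after DDC raised 4 of the 8 genes and lowered 1, with overlapping libraries for all 5, where 16.5% of all genes were called. With only the DDC+EtOH and DDC+HFD libraries in the fit, none of the 8 genes was called by edgeR (804 of all genes were), with log2 fold changes of 0.50 for Krt8 and 0.68 for Sqstm1. The 7 libraries rich in pancreas transcripts include 5 of these 12, and without them 1 gene of the 8, Sqstm1, was called.

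Sqstm1 stood at 373.3 to 1115 CPM in DDC+EtOH livers (median 606.0), against 340.8 to 431.2 CPM in DDC+HFD livers (median 423.8). DDC+EtOH replicates 41 and 42 (373.3 and 408.5 CPM) lay within the DDC+HFD range and the other 4 above it. Sqstm1 rose 1.61-fold (0.69 ± 0.15 SE, adjusted p = 0.00114), and its adjusted p was 0.0875 with only the 2 groups in the fit. Srxn1, which also rose (2.23 ± 0.26 SE, adjusted p = 2.01e-07), averaged 211 ± 116 CPM in DDC+EtOH livers and 45.0 ± 4.9 CPM in DDC+HFD livers (SD, n = 6 each).

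Krt8 stood at 223.5 to 438.6 CPM in DDC+EtOH livers (median 339.7), against 184.3 to 305.3 CPM in DDC+HFD livers (median 240.9). All DDC+EtOH livers but replicate 41 were above the highest DDC+HFD liver. It rose 1.41-fold (0.50 ± 0.13 SE, adjusted p = 0.00673), with an adjusted p of 0.0926 without the libraries rich in pancreas transcripts and 0.0808 with only the 2 groups. Krt18 stood at 157.9 to 368.3 CPM in DDC+EtOH livers (median 274.3), against 162.1 to 284.1 CPM in DDC+HFD livers (median 253.9), and was not called (0.19 ± 0.15 SE, adjusted p = 0.428).

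The keratin balance differed between these groups without overlap. There were 1.14 to 1.42 Krt8 reads per Krt18 read in DDC+EtOH livers (median 1.26), against 0.89 to 1.14 in DDC+HFD livers (median 1.02). The lowest DDC+EtOH liver, at 1.144, lay just above the highest DDC+HFD liver, at 1.137. The log2 ratio was higher by 0.32 (two-sided exact permutation p = 0.00217, or 0.0281 after adjustment). That p is the lowest value possible for 6 against 6 libraries. Without the libraries rich in pancreas transcripts the log2 ratio was higher by 0.35, with too few libraries left for an exact p under 0.05. In mice without DDC the same addition of ethanol gave 1.03, 1.32, 1.43 and 1.28 reads in EtOH livers, against 1.04 to 1.36 in HFD livers (median 1.18; difference in log2 ratio 0.072, exact permutation p = 0.524, adjusted p = 0.681). The difference between these 2 ethanol effects on the ratio was not tested.

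DDC+HFD livers also had the lower ratio when set against HFD livers without DDC (-0.23 in log2 ratio, exact permutation p = 0.0108, adjusted p = 0.045), with overlapping libraries. DDC+EtOH livers had a higher ratio than DDC+Cont livers (0.26, exact permutation p = 0.0173, adjusted p = 0.045) and a lower one than DDC 0D livers (-0.38, exact permutation p = 0.00952, adjusted p = 0.045). Between DDC+EtOH and EtOH livers the difference was 0.012 (exact permutation p = 0.905, adjusted p = 0.957).

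Hspb1 stood at 22.0 to 74.1 CPM in DDC+EtOH livers (median 31.3), against 8.87 to 28.8 CPM in DDC+HFD livers (median 20.2). Replicate 41, at 74.1 CPM, and replicate 42, at 49.4 CPM, were the highest, and these were the DDC+EtOH livers with the least Sqstm1. Hspb1 rose 1.98-fold (0.98 ± 0.28 SE, adjusted p = 0.0129), and the call was lost without replicate 41 (0.70, adjusted p = 0.0655), without the libraries rich in pancreas transcripts, replicate 41 among them (adjusted p = 0.128), and with only the 2 groups in the fit (0.101). Replicate 41 held 2247 CPM of pancreas transcripts, and their part in its values was not tested.

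Tgm2 stood at 368.3 to 420.8 CPM in DDC+EtOH livers (median 395.4), against 231.4 to 399.8 CPM in DDC+HFD livers (median 298.3). One DDC+HFD liver, replicate 32, reached into the DDC+EtOH range. Tgm2 rose 1.34-fold (0.43 ± 0.11 SE, adjusted p = 0.00832), and by 0.24 without the libraries rich in pancreas transcripts, where it was not called (adjusted p = 0.32), nor was it with only the 2 groups (0.0615). Nbr1 stood at 233.8 to 297.3 CPM in DDC+EtOH livers (median 276.6), against 283.9 to 376.3 CPM in DDC+HFD livers (median 305.0). It fell by 0.21 ± 0.064 SE (adjusted p = 0.0166), a call lost without DDC+HFD replicate 37 (adjusted p = 0.0726), without DDC+EtOH replicate 40 (0.0648), without the libraries rich in pancreas transcripts (0.0577) and with only the 2 groups (0.226).

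Around these genes, 8 of the 10 NRF2 genes rose and none fell in DDC+EtOH against DDC+HFD livers (median log2 fold change 1.06). The filament linkers Ppl (1.195 ± 0.21 SE, adjusted p = 9.14e-05) and Evpl, encoding envoplakin, the partner of periplakin (0.91 ± 0.26 SE, adjusted p = 0.0132), rose, 2 of 8 with none lower. Ppl averaged 46.1 ± 19.2 CPM in DDC+EtOH livers and 20.1 ± 4.4 CPM in DDC+HFD livers (SD, n = 6 each). Krt23 was called higher (1.10 ± 0.39 SE, adjusted p = 0.0499), while Krt19 was not called (-0.56 ± 0.29 SE, adjusted p = 0.2). The 13 bile duct markers had a summed level of 78.36 to 144.3 CPM in DDC+EtOH livers, against 81.75 to 141.6 CPM in DDC+HFD livers. Of the autophagosome genes 2 rose (Gabarapl1 and Atg12) and 2 fell (Ulk2 and Wipi1), and of the large chaperones only Stub1 was called (0.25 ± 0.088 SE, adjusted p = 0.0411). Stellate cell markers were called higher for 3 of 8, with a summed level of 378.8 to 594.8 CPM in DDC+EtOH livers, against 319.3 to 459.3 CPM in DDC+HFD livers. Further, 1 of 6 macrophage markers and 1 of 5 sinusoidal endothelium markers were higher and 2 of 10 hepatocyte markers lower, and the part of these cells in the 5 calls was not tested.

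Set against DDC+Cont livers, DDC+EtOH livers had 5 of the 8 genes higher (Krt8, Sqstm1, Ubb, Hspb1 and Tgm2) and Nbr1 lower, where 23.6% of all genes were called. Ubb (0.63 ± 0.13 SE, adjusted p = 0.000359), Tgm2 (0.58 ± 0.12 SE, adjusted p = 0.000461) and Nbr1 (-0.26 ± 0.067 SE, adjusted p = 0.00308) did not overlap between the groups. With only the 2 groups in the fit the adjusted p of Nbr1 was 0.059. Hspb1 (0.81 ± 0.29 SE, adjusted p = 0.0411) lost its call without any of DDC+EtOH replicates 41 and 42 and DDC+Cont replicates 26, 28 and 29 (adjusted p up to 0.171), without a low-count filter (0.0672), with only the 2 groups (0.102) and without the libraries rich in pancreas transcripts (0.124). Krt18 was not called (0.35 ± 0.15 SE, adjusted p = 0.101), but was without DDC+EtOH replicate 41 (0.46, adjusted p = 0.0161) and without the libraries rich in pancreas transcripts (0.0365). Of the markers, 5 of 8 stellate cell, 2 of 6 macrophage and 1 of 5 sinusoidal endothelium genes were higher and 3 of 10 hepatocyte genes lower, with 2 of 13 bile duct genes higher and 1 lower. The stellate cell sum was 378.8 to 594.8 CPM in DDC+EtOH livers, against 332.7 to 428.5 CPM in DDC+Cont livers, and the part of these cells in the calls was not tested.

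Whether earlier DDC altered the ethanol effect was tested as the difference of the 2 ethanol effects. EdgeR's test called 0% of all genes and none of the 8, DESeq2 called none of the 8, and none had an unadjusted p under 0.05. The differences ran from -0.38 ± 0.41 SE for Hspb1 to 0.54 ± 0.35 SE for Cryab. For the HFD effect it likewise called 0% of all genes and none of the 8, with none at an unadjusted p under 0.05 and none in DESeq2. For HFD and ethanol together it called 0.00697% of all genes and none of the 8, and DESeq2 called none. Hspb1 (-0.95 ± 0.43 SE) and Cryab (0.76 ± 0.37 SE) had unadjusted p-values of 0.0342 and 0.0439, with adjusted p of 0.697 and 0.705. A p that misses the threshold does not show that the effects were alike.

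Earlier DDC was also compared within each second treatment. Between DDC+HFD and HFD livers 1 of the 8 genes was called, Tgm2 (0.36 ± 0.12 SE, adjusted p = 0.0307), where 13.5% of all genes were. It stood at 231.4 to 399.8 CPM in DDC+HFD livers (median 298.3), against 190.0 to 293.1 CPM in HFD livers (median 221.8). That call was lost with only the 2 groups in the fit (adjusted p = 0.103) and without any of DDC+HFD replicates 32 and 33 and HFD replicates 14, 15, 17 and 19 (adjusted p up to 0.133). In the same comparison 9 of 13 bile duct markers were higher (median log2 fold change 1.39), with a summed level of 81.75 to 141.6 CPM in DDC+HFD livers, against 51.32 to 61.66 CPM in HFD livers. Of the others, 4 of 8 stellate cell and 2 of 6 macrophage markers were higher and 2 of 10 hepatocyte markers lower, and their part in the Tgm2 difference was not tested. Between DDC+EtOH and EtOH livers 1 gene was called, Cryab, where 6.69% of all genes were. Cryab stood at 1.48 to 3.61 CPM in DDC+EtOH livers (median 1.95), against 1.09, 1.44, 1.23 and 0.81 CPM in EtOH livers. The groups did not overlap (0.84 ± 0.27 SE, adjusted p = 0.0482), but the call was lost without a low-count filter (0.066), with only the 2 groups in the fit (0.165), with lane as a term (0.0663), without the libraries rich in pancreas transcripts (0.0777) and without any of DDC+EtOH replicates 40 and 41 and EtOH replicates 20, 21, 22 and 23 (adjusted p up to 0.154). Beside it 8 of 13 bile duct, 2 of 8 stellate cell and 2 of 6 macrophage markers were higher and 1 of 10 hepatocyte markers lower, and their part was not tested.

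Finally, livers given ethanol after DDC were set against livers at the end of DDC feeding. DDC+EtOH livers had 3 of the 8 genes lower and 2 higher than DDC 0D livers, where 33.7% of all genes were called. Krt8 (-2.38 ± 0.15 SE, adjusted p = 6.59e-15) and Krt18 (-1.98 ± 0.16 SE, adjusted p = 1.39e-11) were lower without overlap. Sqstm1 was not called (-0.044 ± 0.17 SE, adjusted p = 0.871), with means of 652 ± 275 CPM in DDC+EtOH livers (n = 6) and 672 ± 129 CPM in DDC 0D livers (n = 4). Ubb was higher without overlap (0.61 ± 0.14 SE, adjusted p = 0.000771), and Hspb1 was higher with overlap (0.99 ± 0.32 SE, adjusted p = 0.0156). The call of Hspb1 was lost without DDC+EtOH replicate 41 (0.0661), without DDC 0D replicate 6 (0.0605) or 8 (0.0757), without the libraries rich in pancreas transcripts (0.0642) and with only the 2 groups (0.0814). Cryab was lower (-0.68 ± 0.24 SE, adjusted p = 0.0256), but not without DDC 0D replicate 7 (0.128), without DDC+EtOH replicate 38 (0.0691) or 39 (0.0581), or with only the 2 groups (0.0867). Tgm2 was not called (-0.28 ± 0.13 SE, adjusted p = 0.0858), but was without DDC 0D replicate 7 (0.0478). Bile duct markers were lower for 12 of 13 genes (median log2 fold change -2.26), with a summed level of 78.36 to 144.3 CPM in DDC+EtOH livers, against 243.6 to 322.6 CPM in DDC 0D livers. Stellate cell markers were lower for 6 of 8 genes and higher for 1, macrophage markers lower for 2 of 6, sinusoidal endothelium markers higher for 4 of 5, and hepatocyte markers higher for 6 of 10 and lower for 1. The part of these cells in the calls was not tested.

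The order of the 8 groups differed between the genes. Krt8 and Krt18 were highest in DDC 0D livers, with no overlap with the next group, EtOH, and each later neighbour in the order overlapped the one before it. For Krt8 the means were 1759 ± 299 CPM in DDC 0D, 347 ± 72 in EtOH, 339 ± 72 in DDC+EtOH, 273 ± 16 in Control 0D, 261 ± 26 in HFD, 239 ± 46 in DDC+HFD, 234 ± 25 in Control 28D livers, with DDC+Cont lowest at 225 ± 34 CPM. Sqstm1 had its 3 highest means in EtOH, DDC 0D and DDC+EtOH, at 707 ± 72, 672 ± 129 and 652 ± 275 CPM, and these overlapped. Its 5 other groups had means between 382 and 446 CPM.

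Tgm2 had the same 3 groups at the top in another order, DDC 0D (480 ± 67 CPM), DDC+EtOH (395 ± 24) and EtOH (356 ± 36), and was lowest in Control 0D (187 ± 17 CPM). Nbr1 was highest in Control 0D (357 ± 7.1 CPM), without overlap with DDC+Cont, the next group, and lowest in DDC+EtOH (270 ± 25) and DDC 0D (261.6 ± 17.4 CPM). Ubb was highest in EtOH (240 ± 54 CPM), DDC+EtOH (226 ± 31) and DDC+HFD (216 ± 18), followed by HFD (185 ± 25), while the 4 groups without HFD lay between 136 and 148 CPM. Hspb1 was highest in EtOH (54.1 ± 18.5 CPM) and DDC+EtOH (39.1 ± 19.7), and between 15.9 and 24.9 CPM in the 6 others. Cryab was highest in DDC 0D (3.32 ± 0.72 CPM) and lowest in EtOH (1.14 ± 0.26 CPM). Within each gene every other pair of neighbours in the order overlapped.

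Per kilobase of exon, in Control 28D livers, the levels were 136.7 CPM for Krt18, 119.4 for Krt8, 115.9 for Sqstm1, 80.96 for Ubb, 46.77 for Nbr1, 46.74 for Tgm2, 15.4 for Hspb1 and 1.204 for Cryab. In EtOH livers they were 210.6 CPM for Sqstm1, 191.1 for Krt18 and 177.0 for Krt8. Full exon length was used, although 50.1% of the 50-base words of Hspb1, 48.1% of those of Ubb and 29.7% of those of Krt8 are shared with other genes and reads with several alignments were not counted. No order among the 8 genes was drawn from these levels.

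The genes with the most similar pattern were taken by Pearson's r of log2(CPM + 1) over the 40 libraries, among genes with a mean of at least 5 CPM. The libraries share group means, so r describes the pattern and carries no test. Krt8 and Krt18 were each other's nearest gene out of 9669 ranked, with r = 0.977, and with r = 0.839 in the 36 libraries without DDC 0D. The nearest genes to Sqstm1 were Srxn1 (0.915), Htatip2 (0.907) and Prune (0.904), and without DDC 0D they were Trib3 (0.948), Srxn1 (0.918) and Htatip2 (0.900). For Hspb1 the nearest gene was Hsp90aa1, encoding an HSP90 chaperone (0.780), followed by Nudc and Gga2. Tgm2 was nearest to Lgmn, the lysosomal protease legumain (0.943), Mvp and Itm2c. Nbr1 was nearest to Hpd, an enzyme of tyrosine breakdown (0.890), Aass and Slc38a4. Ubb was nearest to Stbd1 (0.790), Cyp2c29 and Ifnar2. Cryab, with its low counts, reached only 0.678 (Ano1, followed by Lamb1 and Myo1d).

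Among the 8 genes themselves, Sqstm1 and Krt8 had r = 0.594 over all libraries and 0.731 without DDC 0D. Sqstm1 and Nbr1, the receptors found together in the inclusions, had r = -0.535 and -0.431. Hspb1 and Krt8 had r = -0.061 over all libraries and 0.304 without DDC 0D. Tgm2 and Nbr1 had the most negative r over all libraries, at -0.718.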

How the data were processed

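The authors deposited 1 table of read counts per gene for each of the 40 libraries. Reads were aligned with GSNAP to mm10 and DESeq2 1.12.3 was used, per the submitters' processing notes. Which program, annotation and strand option produced the counts was not given in the sources used here. The 5 tallies of uncounted reads were left out of library sizes. Reads with no feature came to 20.1 to 28.2% and reads with several alignments to 17.1 to 28.7%. Groups came from the titles. The labels do not say whether animals were housed or processed apart. Effects of housing or processing shared within a group could not be told apart from its treatment. The p-values of edgeR's main fit rest on the spread between libraries within groups, estimated over all 40 libraries together.

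From the deposited counts, CPM were computed with TMM factors and no pseudocount. The TMM factors were 1.22 to 1.23 in DDC 0D and 0.94 to 0.99 in Control 0D libraries. EdgeR 4.0.16 (R 4.3.3) fitted all 40 libraries by group with its quasi-likelihood test, on the 14355 genes that passed filterByExpr, and p-values were adjusted over all of them (Benjamini-Hochberg). DESeq2 1.42.0 was an alternative. SE is the size of the log2 fold change divided by the square root of F. Keratin ratios were compared with exact permutation tests (scipy 1.17.1). The scripts were tested on simulated data. Alternatives were other size factors, other low-count filters, robust estimation off, DESeq2, a lane term, fits on the compared groups alone, each library left out, and no libraries over 1000 CPM of pancreas transcripts.

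The 8 genes and all lists were chosen with earlier results of these data known. Of each pathway list, the genes named were up to 4 with the smallest adjusted p in DDC 0D against Control 0D and up to 2 in other comparisons; Keap1, and Gabarapl1 and Atg12 after DDC, were named after their values were seen. The list of other ubiquitin genes is not reported here.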

Additional observations from a re-analysis of the deposited data

Results flagged for a closer look

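In 72 sets of values, each 1 quantity in 1 group, 3 had a single library far from the rest, where chance gives about 1 in 20. These were Cryab in DDC+EtOH replicate 41 (3.61 CPM), Nbr1 in DDC+HFD replicate 37 (376.3 CPM) and Krt18 in HFD replicate 16 (283.1 CPM).

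The effect of DDC differed between the 2 stages for 5 genes, by edgeR's test of the difference itself (28D minus 0D, log2 scale). In that test 32.1% of all genes were called. The differences were -2.74 for Krt8, -2.13 for Krt18, -0.62 for Sqstm1, 0.46 for Nbr1 and -1.06 for Tgm2. The call of Sqstm1 (adjusted p = 0.0489) was lost with lane as a term (0.128) and without most single libraries of the groups compared.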

How the results depend on the processing

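No result changed direction. The number of the 8 genes called was 5 between EtOH and HFD livers with DESeq2. Without the libraries rich in pancreas transcripts it was 0 for DDC+HFD against DDC+Cont, 1 for DDC+EtOH against DDC+HFD and 0 for DDC+EtOH against EtOH. With only the compared groups in the fit it was 0 for DDC+EtOH against DDC+HFD, 0 for DDC+HFD against HFD, 0 for DDC+EtOH against EtOH and 3 for DDC+EtOH against DDC 0D. For DDC+EtOH against EtOH it was also 0 without a low-count filter and 0 with lane as a term. The cause was not tested. With each library left out in turn it was 0 to 1 for DDC+HFD against HFD and 0 to 1 for DDC+EtOH against EtOH. Of the single genes' values with 1 library left out, 1653 kept their side of the threshold, 53 lost a call and 6 gained one. Under the other settings 1056 kept their side, 27 lost a call and 5 gained one. Over all genes, fits on only the compared groups called 804 in place of 2375 genes for DDC+EtOH against DDC+HFD, 243 in place of 960 for DDC+EtOH against EtOH, 101 in place of 488 for DDC+HFD against DDC+Cont, 2000 in place of 3388 for DDC+EtOH against DDC+Cont and 3151 in place of 4841 for DDC+EtOH against DDC 0D. For HFD against Control 28D, 54 genes were called, 128 with DESeq2 and 105 in the fit on those groups. For Control 28D against Control 0D the numbers were 353, 572 and 688. Without the libraries rich in pancreas transcripts the counts were 535 for Control 28D against Control 0D, 1275 for DDC+EtOH against DDC+HFD and 1468 for DDC+EtOH against EtOH, and with lane as a term 299 for DDC+HFD against DDC+Cont. Single libraries also moved these background counts by over 1.5 times. Control 28D against Control 0D had 119, 137 and 164 calls without Control 0D replicates 4, 2 and 3, and 209 without Control 28D replicate 13. HFD against Control 28D had 25 to 34 calls when replicate 9, 10, 11 or 13 of Control 28D was left out, and 29 to 35 when replicate 14, 16 or 17 of HFD was. DDC+Cont against Control 28D, with 218 calls, had 129 without Control 28D replicate 11 and 133 without DDC+Cont replicate 25 or 26. DDC+HFD against DDC+Cont had 167, 288 and 301 without DDC+Cont replicates 25, 28 and 24, and 225 without DDC+HFD replicate 33. DDC+EtOH against EtOH had 573, 560 and 545 without EtOH replicates 21, 22 and 23, 631 without DDC+EtOH replicate 39 and 1477 without replicate 38. DDC+HFD against HFD, with 1931, had 1213 without HFD replicate 15. The joint difference for HFD and ethanol had 1 call, 10 with DESeq2 and 0 to 3 without single libraries; DESeq2 called 4 genes for the ethanol difference and 2 for the HFD difference. Cryab, at 11 to 67 reads per library, is limited by depth. No paired analysis was possible because each replicate number belongs to 1 animal and no groups share one.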
